A study of Mus musculus with 6 samples.

Results

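The genes described here are 53 genes of the lysosome: membrane proteins, hydrolases of its lumen, the MiT/TFE transcription factors that control them, and subunits of the V-ATPase, the proton pump that makes it acidic. They were chosen by gene symbol, with earlier results of these data known, and all 53 were found among the 46983 genes of the deposited count table. RNA had been sequenced from MLL-AF9 leukemia cells of 2 genotypes, both untreated, with 3 libraries from Alox5-/- cells and 3 from wild-type (WT) cells on the C57BL/6J background. In both groups the MLL-AF9 fusion had been brought by retrovirus into LSK cells (marrow stem and progenitor cells that lack lineage markers and carry Sca-1 and c-Kit) sorted from donors of either genotype, and transduced cells, marked by GFP, had then been given to C57BL/6J primary hosts after irradiation. Each sample title also names its library LSK, which may mean the sequenced cells or the cells of origin. The labels call the libraries biological replicates without naming the animals or transductions behind them, so a p-value here reflects the spread between these samples alone.

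The libraries held 28985597 to 38695948 gene counts each. Levels are given as CPM, a gene's counts relative to the total of its library, on the usual per-million scale with TMM factors, and as mean ± SD of 3 libraries unless the libraries are listed, in the order of replicates 1 to 3. Differences are log2 fold changes of Alox5-/- over WT with their standard error (SE) from edgeR, and a gene was called at an adjusted p under 0.05. Alox5, which encodes 5-lipoxygenase, was at 65.6, 62.0 and 64.8 CPM in Alox5-/- libraries against 102, 106 and 106 CPM in WT libraries. It was called lower (log2 fold change -0.70) but remained detected in every Alox5-/- library, in counts over the whole gene, and the labels do not say which part of it the null allele lacks. Kit was at 136 CPM in Alox5-/- libraries and 160 CPM in WT libraries, and Hoxa9 and Meis1 of the MLL-AF9 program were at 307 and 147 CPM in Alox5-/- libraries and at 244 and 148 CPM in WT libraries, while Ly6a, which encodes Sca-1, was at only 0.762 CPM in Alox5-/- libraries and 1.06 CPM in WT libraries. Why Ly6a was this low in libraries titled LSK was not tested. Of the 11 markers of progenitors and the MLL-AF9 program, 6 were called higher and 3 lower, with Flt3 at 21.3 CPM, Cd34 at 227 CPM and Hoxa10 at 140 CPM in Alox5-/- libraries, against 11.3, 177 and 176 CPM in WT libraries. Alox5-/- replicate 2 stood farther from its group than any other library did from its own, with a chi-square per degree of freedom of 9.09 to 10.3 against the other Alox5-/- libraries, where the other pairs within groups reached at most 5.10.

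Lysosomes break down proteins, glycans, lipids and nucleic acids delivered by endocytosis and autophagy, using hydrolases that work at acid pH. The V-ATPase has a membrane part, V0, through which protons pass, and a cytosolic part, V1, which hydrolyses ATP and drives the rotation. TFEB, TFE3 and MITF are related factors that bind E-box sequences in the promoters of lysosomal genes and are held in the cytosol by mTORC1 when nutrients are plentiful. In myeloid cells lysosomal proteases also serve antigen processing and the maturation of granule enzymes.

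Most of the lysosomal genes were higher in Alox5-/- cells, by small amounts. All 53 passed the filter on low counts. Of these, 35 were called higher, 6 lower and 12 were not called, where 26.8% of the 13705 genes tested were called higher, 27.0% lower and 53.8% in either direction. The 35 higher genes are 66.0% of the 53. The median log2 fold change of the 53 genes was 0.17, and that of all tested genes was 9.97e-05. The change was smaller than 1.2-fold in 23 of the 41 called genes, and 7 higher genes and 1 lower gene differed at least 1.5-fold, where 7.60% of all tested genes did so upward and 3.94% downward. For 42 of the 53 genes every library of one genotype lay on the same side of every library of the other, against 60.0% of all tested genes. Summed over the 53 genes, the level was 11431 to 11633 CPM in Alox5-/- libraries and 10184 to 10445 CPM in WT libraries. Among the 10085 other tested genes with a mean level in the range of these 53 (5.14 to 1168 CPM), 28.2% were called higher and 31.8% lower. The shares varied with level. Of the 2684 tested genes at a mean of 100 CPM or more, 19.9% were called higher and 44.8% lower. The median of the mean levels of the 53 genes was 132 CPM.

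**Figure D1:**
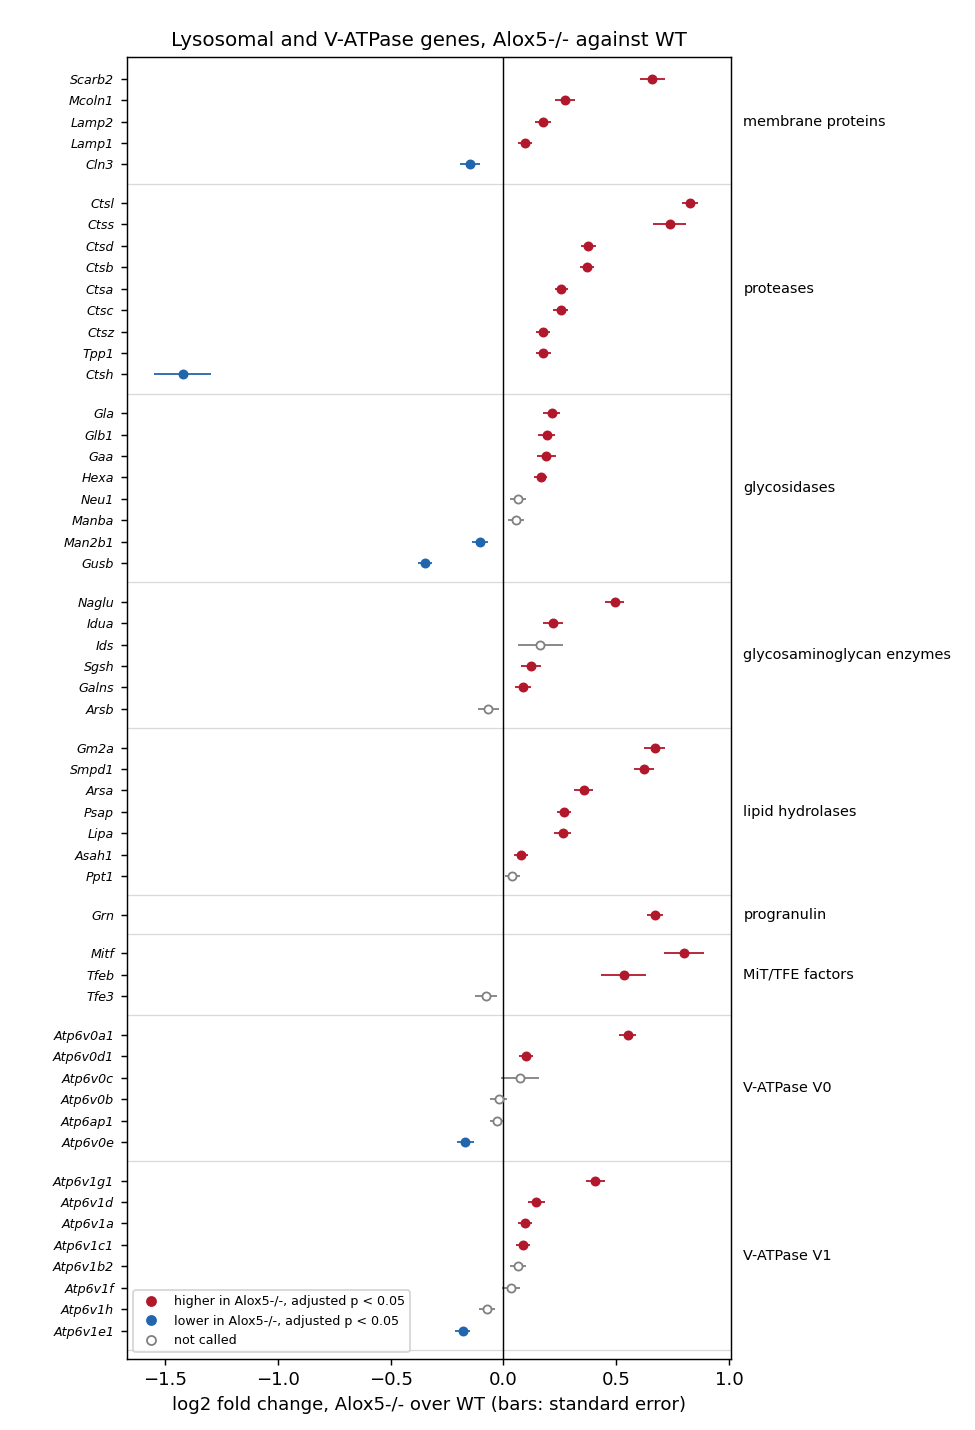
Log2 fold change of Alox5-/- over WT for each of the 53 genes, in groups by role, with bars of 1 standard error on each side. Filled red points (35 genes) were called higher in Alox5-/-, filled blue points (6 genes) lower, and open grey points (12 genes) were not called. Most points lie right of 0, and Ctsh stands alone on the far left at -1.42.

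The V-ATPase genes had a lower median difference than the enzymes and membrane proteins. Of the 36 genes outside the V-ATPase and the transcription factors, 27 were called higher and 4 lower, with a median log2 fold change of 0.19. Their 4 lower calls became 2 with library totals only, without Alox5-/- replicate 2 and without WT replicate 3. Of the 14 V-ATPase genes, 6 were called higher, 2 lower and 6 were left without a call, and the median was 0.07. These are 42.9% higher and 14.3% lower, beside 26.8% and 27.0% of all tested genes. The share called in either direction, 57.1%, was near the 53.8% of all tested genes. Without WT replicate 1 the V-ATPase count became 3 higher and 3 lower, as Atp6v0d1, Atp6v1a and Atp6v1c1 lost their calls and Atp6v1h was called lower, and without WT replicate 2 the median was 0.02. The difference between these lists was not tested.

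Summed markers of neutrophils, of mast cells and basophils and of macrophages were lower in Alox5-/- libraries, while osteoclast sums overlapped. The part of other cells in these results was not tested. In bulk RNA, fewer cells of a type and less RNA per cell cannot be told apart. Of 8 neutrophil markers, 5 were called lower (3 with the stricter filter) and 1 higher, with a summed level of 25.1 to 27.4 CPM in Alox5-/- libraries and 56.8 to 62.6 CPM in WT libraries. Of 6 mast cell and basophil markers, 2 were called lower and 1 higher (none higher without Alox5-/- replicate 3 or WT replicate 3), with Prss34 and Fcer1a at 0 in all libraries and a sum of 60.9 to 66.5 CPM in Alox5-/- libraries and 129 to 139 CPM in WT libraries. Of 10 mature macrophage markers only Adgre1 and Mrc1 passed the filter, Timd4, Marco and Vsig4 had no count, and the sum was 32.8 to 35.9 CPM in Alox5-/- libraries and 42.5 to 45.8 CPM in WT libraries, nearly all of it Adgre1. The osteoclast markers Ocstamp, Atp6v0d2 and Calcr had no count, and that list summed to 6.22 to 6.97 CPM in Alox5-/- libraries and 6.73 to 7.66 CPM in WT libraries. Lymphoid and erythroid markers summed to less than 1 CPM in every library. The stromal and endothelial list summed to 194 to 199 CPM in Alox5-/- libraries and 174 to 175 CPM in WT libraries, nearly all of it Pecam1, which hematopoietic cells also express.

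Among the transcription factors, Mitf and Tfeb rose and Tfe3 was not called. Mitf, known for its part in melanocytes, mast cells and osteoclasts, was at 8.85, 9.02 and 8.88 CPM in Alox5-/- libraries and at 4.85, 4.81 and 5.60 CPM in WT libraries. All Alox5-/- libraries lay above all WT libraries and within a narrow range, a difference of 0.80 on the log2 scale (SE 0.09; edgeR adjusted p = 2.22e-06). Tfeb, the factor most closely tied to lysosome formation, was at 11.1, 13.2 and 10.6 CPM in Alox5-/- libraries and at 9.10, 7.23 and 7.73 CPM in WT libraries, again without overlap, a difference of 0.53 on the log2 scale (SE 0.10; edgeR adjusted p = 0.000369). Tfe3 was at 38.2, 38.4 and 37.8 CPM in Alox5-/- libraries and at 39.7, 38.4 and 42.4 CPM in WT libraries. Its groups came close together at WT replicate 2, and the log2 fold change of -0.08 (SE 0.05) had an edgeR adjusted p of 0.187. The fourth member of the family, Tfec, which is expressed in macrophages, is not one of the 53 genes and moved the other way, at 128, 114 and 122 CPM in Alox5-/- libraries and 180, 187 and 188 CPM in WT libraries (difference of -0.61 on the log2 scale, SE 0.04; edgeR adjusted p = 1.16e-08). Per kilobase of exon, Tfec had the highest level of the family in every library, making up 72.1 to 75.3% of the summed level of the 4 genes in Alox5-/- and 82.8 to 84.3% in WT. Exon length joins the exons of all annotated isoforms, 9261 bases for Tfe3 and 5594 for Tfec, so shares and sums depend on the annotation. Mitf made up 4.69 to 5.13% in Alox5-/- and 1.96 to 2.24% in WT, and Tfeb 6.40 to 8.18% in Alox5-/- and 3.23 to 4.14% in WT. The summed level of the family per kilobase was 28.4 to 30.4 CPM in Alox5-/- libraries and 38.8 to 40.4 CPM in WT libraries, so the rises of Mitf and Tfeb went with a lower total.

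Promoters of the 53 genes were searched for the E-box CACGTG and for its longer form TCACGTGA, the centre of the element known in lysosomal gene promoters. Both read the same on the 2 strands, and each longer match holds a shorter one. The RefSeq promoter table of build GRCm38.p6 covers 250 bases before to 50 bases after a gene's start and had entries for 45 of the 53 genes. Atp6v1b2, Atp6v1c1, Atp6v1g1, Atp6v1h, Asah1, Galns, Ctsb and Ctsh had none. CACGTG was found for 16 of 45 genes (35.6%), against 8.09% of all 27025 genes in the table and 12.0% of the 9302 other tested genes with an entry. TCACGTGA was found for 8 of 45 genes (17.8%), against 1.12% of all genes in the table and 2.17% of those other tested genes. These are shares of matches in the sequence, and binding was not measured. The 8 genes with the longer form are shown as stretches of 30 bases on the gene's own strand, 5′ to 3′, with TCACGTGA in capitals and, for Ctsa and Gla, the first of 2 copies. The first 6 were called higher in Alox5-/- and the last 2 lower.
Mcoln1: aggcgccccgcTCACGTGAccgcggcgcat
Ctsa: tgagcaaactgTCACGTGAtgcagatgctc
Ctsd: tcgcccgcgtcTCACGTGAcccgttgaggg
Gla: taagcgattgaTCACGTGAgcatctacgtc
Atp6v0d1: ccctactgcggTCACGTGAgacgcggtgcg
Atp6v1a: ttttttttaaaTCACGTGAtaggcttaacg
Cln3: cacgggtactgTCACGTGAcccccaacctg
Atp6v0e: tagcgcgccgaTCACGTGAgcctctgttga

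In GRCm38.p6 these stretches lie at chr8:3500462-3500491, chr2:164833749-164833778 and chr17:26676387-26676416 on the plus strand and at chr7:142387908-142387937, chrX:134601215-134601244, chr8:105566050-105566079, chr16:44139373-44139402 and chr7:126583340-126583369 on the minus strand. Lamp1 has 4 copies of CACGTG, more than any other of the 45 genes, and Mcoln1 has 2. The 250 bases before the gene's start are shown for both, with the E-boxes and the longer form in capitals, from chr8:13158911-13159160 and chr8:3500269-3500518, plus strand.
Lamp1: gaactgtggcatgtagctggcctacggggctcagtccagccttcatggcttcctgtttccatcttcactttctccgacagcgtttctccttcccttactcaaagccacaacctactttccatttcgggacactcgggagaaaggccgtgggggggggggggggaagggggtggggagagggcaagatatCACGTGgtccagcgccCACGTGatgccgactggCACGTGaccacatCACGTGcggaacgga
Mcoln1: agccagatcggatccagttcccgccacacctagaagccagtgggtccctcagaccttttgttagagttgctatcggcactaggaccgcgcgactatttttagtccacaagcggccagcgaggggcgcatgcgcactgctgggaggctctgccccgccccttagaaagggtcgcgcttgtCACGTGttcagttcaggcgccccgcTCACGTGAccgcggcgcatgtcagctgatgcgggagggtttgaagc

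Most genes were called higher both with and without the E-box. Of the 16 genes with CACGTG, 13 were called higher, 2 lower and 1 was not called; their median log2 fold change was 0.19. Of the 29 genes whose promoters lacked it, 17 were called higher, 3 lower and 9 were not called, with a median of 0.17, and of the 8 genes without an entry 5 were called higher, 1 lower and 2 were not called. Among the 7 genes raised at least 1.5-fold, Ctsl has a CACGTG 236 bases before the start, and Scarb2, Ctss, Smpd1, Gm2a, Grn and Mitf have none in this window, which says nothing of factor binding elsewhere. No test was made of this split.

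The lysosomal membrane proteins rose in 4 of 5 cases. Scarb2, the membrane protein that carries glucocerebrosidase to the lysosome, was at 41.2, 42.2 and 40.0 CPM in Alox5-/- libraries and at 25.1, 28.2 and 25.0 CPM in WT libraries. Every Alox5-/- library was well above every WT library, a difference of 0.66 on the log2 scale (SE 0.06; edgeR adjusted p = 1.26e-07). Mcoln1, the calcium channel mucolipin 1, rose by 0.27 and Lamp2, a coat protein of the lysosomal membrane that also serves chaperone-mediated autophagy, by 0.17. Lamp1, the other main coat protein, was at 1035, 998 and 1025 CPM in Alox5-/- libraries and at 939, 965 and 957 CPM in WT libraries, a rise of only 0.10 (SE 0.03; edgeR adjusted p = 0.0142) without overlap of the groups; this call was lost when Alox5-/- replicate 1 or 3 or WT replicate 1 was left out, with adjusted p of 0.0533 to 0.0762. Cln3, the protein lost in juvenile Batten disease, was at 58.1, 52.6 and 57.4 CPM in Alox5-/- libraries and at 60.7, 60.8 and 64.6 CPM in WT libraries, a fall of 0.15 on the log2 scale (edgeR adjusted p = 0.0126). The Cln3 call was lost without Alox5-/- replicate 2, its lowest library (adjusted p = 0.0798), without WT replicate 3 (0.0709) and with library totals as the only scaling (0.0708).

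Proteases were mostly higher, with 8 of 9 called higher and Ctsh alone lower. Ctsl, a cysteine protease of the endolysosome, was at 112, 110 and 113 CPM in Alox5-/- libraries and at 62.7, 61.8 and 64.0 CPM in WT libraries. The spread within each genotype was under 4 CPM beside a gap of more than 45 CPM, and the difference was 0.83 on the log2 scale (SE 0.03; edgeR adjusted p = 8.46e-11), the largest rise among the 53 genes. Ctss, the protease that degrades the invariant chain in antigen-presenting cells, was at 20.6, 18.6 and 18.6 CPM in Alox5-/- libraries and at 10.5, 12.2 and 11.9 CPM in WT libraries (difference of 0.74 on the log2 scale, SE 0.07; edgeR adjusted p = 8.07e-07). Ctsd, the main aspartic protease, was at 1366, 1279 and 1312 CPM in Alox5-/- libraries and at 1001, 1009 and 1041 CPM in WT libraries, a difference of 0.37 on the log2 scale (SE 0.03; edgeR adjusted p = 2.29e-07). Per kilobase of exon Ctsd had the highest level of the 53 genes, 561 CPM in Alox5-/- libraries and 433 CPM in WT libraries. Ctsb, a further cysteine protease, rose by 0.37, Ctsa, which protects beta-galactosidase and neuraminidase 1, by 0.26, Ctsc, which activates the serine proteases of granules, by 0.25, and Ctsz and Tpp1, a carboxypeptidase and a tripeptidyl peptidase, by 0.18 each.

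Ctsh, an aminopeptidase of the cathepsin family, went the other way. It was at 2.79, 3.38 and 2.22 CPM in Alox5-/- libraries and at 6.89, 7.91 and 7.65 CPM in WT libraries, so that all Alox5-/- libraries were below all WT libraries. The log2 fold change was -1.42 (SE 0.13; edgeR adjusted p = 2.35e-07), a 2.68-fold lower level and the deepest fall of the 53 genes. Per kilobase of exon it was the lowest of the 9 proteases in both genotypes, at 0.622 CPM in Alox5-/- libraries and 1.66 CPM in WT libraries.

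**Figure D2:**
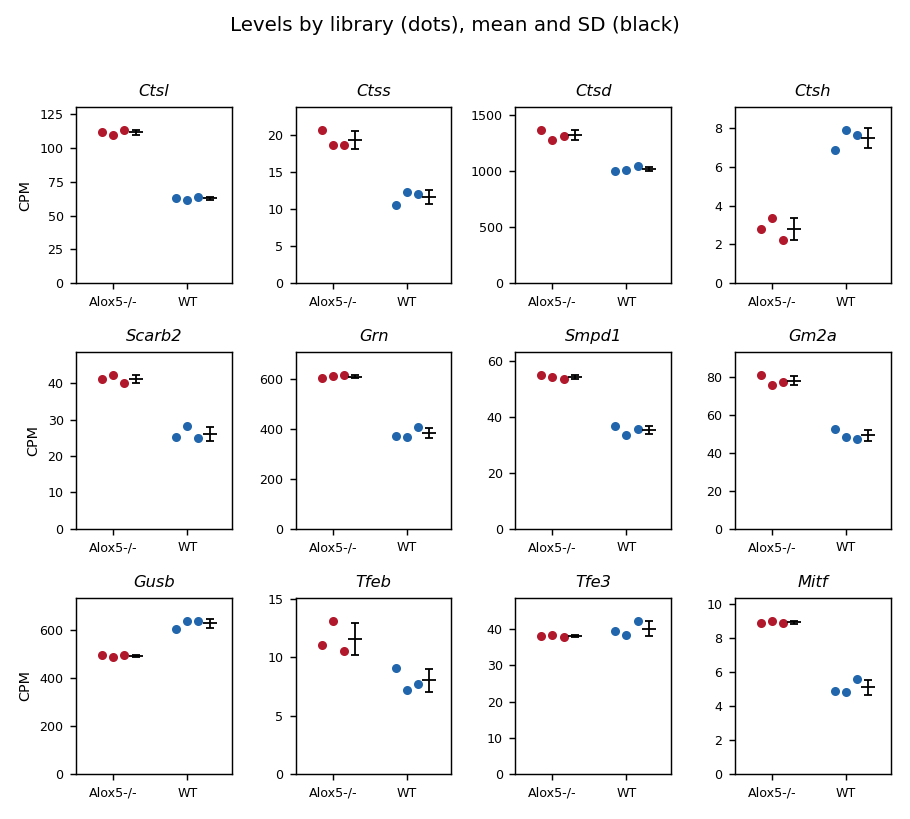
CPM of 12 genes in each library (dots, red for Alox5-/- and blue for WT), with the mean and SD of each group in black and axes that start at 0. Ctsl, Ctss, Scarb2, Grn, Smpd1, Gm2a and Mitf were at least 1.5-fold higher in Alox5-/-, Ctsh and Gusb were lower, and Tfe3 was not called.

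Of the 8 glycosidases, 4 were called higher, 2 lower and 2 were not called. These are 50% higher and 25% lower, beside 26.8% and 27.0% of all tested genes, so the share called lower was near that of all genes. Gla, the alpha-galactosidase lost in Fabry disease, was at 108, 103 and 109 CPM in Alox5-/- libraries and at 88.9, 90.8 and 95.3 CPM in WT libraries, without overlap (log2 fold change 0.21, SE 0.04; edgeR adjusted p = 0.000223). Glb1, the beta-galactosidase, Gaa, the alpha-glucosidase that degrades glycogen, and Hexa, a subunit of beta-hexosaminidase, rose by 0.19, 0.19 and 0.17. Gusb, the beta-glucuronidase, was at 497, 489 and 495 CPM in Alox5-/- libraries and at 605, 640 and 639 CPM in WT libraries. All Alox5-/- libraries were lower, by 0.35 on the log2 scale (SE 0.03; edgeR adjusted p = 2.87e-07). Man2b1, an alpha-mannosidase, fell by 0.10, a call lost with upper-quartile scaling (adjusted p = 0.0888) or library totals only (0.177), and on leaving out Alox5-/- replicate 2 (0.112), WT replicate 1 (0.0681) or WT replicate 3 (0.0916). Neu1, the sialidase, and Manba, the beta-mannosidase, had log2 fold changes of 0.06 each with overlapping groups and adjusted p of 0.15 and 0.204. Summed over the 8 glycosidases the groups overlapped, at 2043 to 2083 CPM in Alox5-/- libraries and 2070 to 2139 CPM in WT libraries, while every single called gene was separated.

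Enzymes that degrade glycosaminoglycans were called higher in 4 of 6 cases and lower in none. Only 2 were called higher when Alox5-/- replicate 1, Alox5-/- replicate 3 or WT replicate 2 was left out. Naglu, which removes N-acetylglucosamine from heparan sulfate, was at 81.6, 80.9 and 78.3 CPM in Alox5-/- libraries and at 58.9, 53.6 and 58.6 CPM in WT libraries, a difference of 0.49 on the log2 scale (SE 0.04; edgeR adjusted p = 1.69e-07). Idua, the alpha-iduronidase, rose by 0.22, and Sgsh, the heparan sulfamidase, by 0.12. Galns, the N-acetylgalactosamine-6-sulfatase, was at 109, 106 and 108 CPM in Alox5-/- libraries and at 103, 98.0 and 103 CPM in WT libraries, a rise of 0.09 (SE 0.03; edgeR adjusted p = 0.0437) close to the threshold. The Galns call was lost with DESeq2 (adjusted p = 0.073), with the replicate block (0.0592) and without any one library except Alox5-/- replicate 2. Sgsh lost its call when Alox5-/- replicate 1 or 3 or WT replicate 2 was left out. Ids, the iduronate sulfatase, was at 6.78 ± 0.61 CPM in Alox5-/- libraries and 6.07 ± 0.601 CPM in WT libraries, and Arsb, arylsulfatase B, at 37.0 ± 0.627 CPM in Alox5-/- libraries and 38.8 ± 1.21 CPM in WT libraries (SD, n = 3 each), neither called.

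Of the 7 genes for lipid breakdown, 6 were called higher and Ppt1 was not called. Gm2a, the activator protein that presents ganglioside GM2 to beta-hexosaminidase, was at 81.1, 76.1 and 77.6 CPM in Alox5-/- libraries and at 52.4, 48.2 and 47.3 CPM in WT libraries (difference of 0.67 on the log2 scale, SE 0.04; edgeR adjusted p = 1.3e-08). Smpd1, the acid sphingomyelinase, was at 54.8, 54.1 and 53.5 CPM in Alox5-/- libraries and at 36.6, 33.5 and 35.5 CPM in WT libraries (difference of 0.62 on the log2 scale, SE 0.04; edgeR adjusted p = 2.5e-08). In both genes the Alox5-/- libraries were tightly grouped and lay more than 1.5-fold above WT on average. Psap, the precursor of the saposins that help sphingolipid hydrolases, was at 460, 459 and 453 CPM in Alox5-/- libraries and at 382, 368 and 388 CPM in WT libraries, a difference of 0.27 on the log2 scale (SE 0.03; edgeR adjusted p = 3.08e-06). Arsa, which desulfates sulfatide, rose by 0.36 and Lipa, the acid lipase, by 0.26. Asah1, the acid ceramidase, rose by 0.08 with an edgeR adjusted p of 0.0463, which passed the threshold in 7 of 15 alternatives. Ppt1, a thioesterase that removes palmitate from proteins, was at 187 ± 1.24 CPM in Alox5-/- libraries and 181 ± 5.91 CPM in WT libraries (SD, n = 3 each; edgeR adjusted p = 0.335).

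Grn, which encodes progranulin, a secreted protein that is taken to the lysosome and cut there into granulins, was at 601, 608 and 613 CPM in Alox5-/- libraries and at 372, 367 and 406 CPM in WT libraries. The lowest Alox5-/- library was above the highest WT library by more than the range of either group, and the log2 fold change was 0.67 (SE 0.04; edgeR adjusted p = 1.53e-09).

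None of the 14 V-ATPase genes differed 1.5-fold or more, and called subunits moved in both directions. The share of them called, 57.1%, was near the 53.8% of all tested genes. In V0 and its accessory protein, Atp6v0a1 and Atp6v0d1 rose, Atp6v0e fell, and Atp6v0b, Atp6v0c and Atp6ap1 were not called. Atp6v0a1, an isoform of the a subunit, the arm that lines the proton path, was at 103, 101 and 103 CPM in Alox5-/- libraries and at 66.8, 71.8 and 71.2 CPM in WT libraries, a difference of 0.55 on the log2 scale (SE 0.04; edgeR adjusted p = 1.38e-08). Atp6v0d1, which joins V0 to the central stalk, was at 254, 260 and 259 CPM in Alox5-/- libraries and at 238, 236 and 247 CPM in WT libraries, a rise of 0.10 (SE 0.03; edgeR adjusted p = 0.014) that was lost without WT replicate 1 (0.0618), which left 1 V0 gene called higher. Atp6v0e, a small membrane subunit, was at 145, 132 and 137 CPM in Alox5-/- libraries and at 151, 156 and 159 CPM in WT libraries, a fall of 0.17 (SE 0.04; edgeR adjusted p = 0.00174). The proteolipid genes of the rotor ring gave no call. Atp6v0b was at 191 ± 3.41 CPM in Alox5-/- libraries and 194 ± 9.65 CPM in WT libraries, and Atp6v0c at 88.0 ± 13.3 CPM in Alox5-/- libraries and 83.5 ± 7.86 CPM in WT libraries (SD, n = 3 each).

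The other isoforms of the a subunit moved against Atp6v0a1. Atp6v0a2 was at 92.3, 90.8 and 91.0 CPM in Alox5-/- libraries and at 106, 105 and 106 CPM in WT libraries (difference of -0.21 on the log2 scale, SE 0.03; edgeR adjusted p = 5.25e-05). Tcirg1, which encodes the a3 isoform of osteoclasts and of lysosomes in other cells, was at 155, 161 and 149 CPM in Alox5-/- libraries and at 178, 159 and 182 CPM in WT libraries, called lower (log2 fold change -0.16, SE 0.05; edgeR adjusted p = 0.00867) although Alox5-/- replicate 2 lay above WT replicate 2; this call was lost without Alox5-/- replicate 3 or WT replicate 3. Atp6v0a4, an isoform known from the kidney, had no count in any library. Per kilobase of exon, Atp6v0a1 made up 24.1 to 25.6% of the summed level of the 3 detected isoforms in Alox5-/- and 15.7 to 17.9% in WT, and Tcirg1, the highest of them in every library, made up 52.5 to 54.7% in Alox5-/- and 56.5 to 59.8% in WT. The sum itself overlapped between the groups, at 61.7 to 63.8 CPM per kilobase in Alox5-/- and 61.1 to 66.2 in WT. Shares and sum depend on the annotated exon lengths.

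In V1, 4 of 8 genes were called higher, 1 lower and 3 were not called. The called share was 62.5%, beside 53.8% of all tested genes. Without Alox5-/- replicate 1, Alox5-/- replicate 3 or WT replicate 3, 2 were called higher and 1 lower, and without WT replicate 1, 2 were called higher and 2 lower. Atp6v1g1, a subunit of the outer stalk, was at 69.0, 74.0 and 72.2 CPM in Alox5-/- libraries and at 55.5, 51.9 and 54.8 CPM in WT libraries, a difference of 0.41 on the log2 scale (SE 0.04; edgeR adjusted p = 1.12e-06). Atp6v1e1, its partner in the outer stalk, was at 264, 254 and 258 CPM in Alox5-/- libraries and at 284, 303 and 292 CPM in WT libraries, a fall of 0.18 (SE 0.03; edgeR adjusted p = 0.000331). These partners therefore moved in opposite directions, each without overlap of the groups. Atp6v1a, the catalytic subunit, was at 337, 329 and 347 CPM in Alox5-/- libraries and at 310, 326 and 313 CPM in WT libraries, a rise of 0.10 (SE 0.03; edgeR adjusted p = 0.0234). Atp6v1d, of the rotating stalk, rose by 0.15 and Atp6v1c1, which takes part in the assembly of V1 with V0, by 0.09. The calls of Atp6v1a and Atp6v1c1 were lost in 4 and 6 of 15 alternatives. Atp6v1b2, the other subunit of the catalytic head, Atp6v1f and Atp6v1h were not called, at log2 fold changes of 0.07, 0.03 and -0.07, and Atp6v1h was called lower without WT replicate 1 (edgeR adjusted p = 0.0446).

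**Figure D3:**
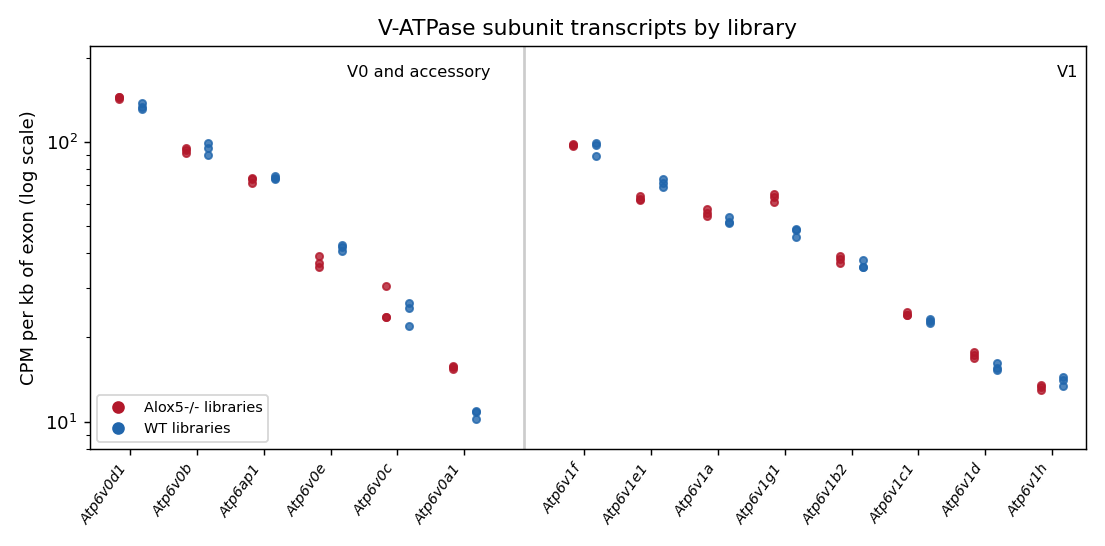
CPM per kilobase of exon (log axis) of the 14 V-ATPase genes in each library, Alox5-/- in red left of WT in blue, ordered within V0 and V1 by the mean in WT. Atp6v0a1 and Atp6v1g1 show the clearest gaps between the genotypes, and in most other subunits the dots of the groups lie close together.

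Per kilobase of exon, the order of the subunits was nearly the same in both genotypes. Atp6v0d1 was highest, at 144 CPM in Alox5-/- libraries and 134 CPM in WT libraries, followed by Atp6v1f at 97.4 CPM in Alox5-/- libraries and 95.1 CPM in WT libraries, and Atp6v0b at 93.1 CPM in Alox5-/- libraries and 94.5 CPM in WT libraries; Atp6v1f and Atp6v0b overlapped in WT. On this measure Atp6v1g1 was at 63.2 CPM beside 62.9 CPM of Atp6v1e1 in Alox5-/-, and in WT at 47.6 CPM beside 71.3 CPM. Atp6v1h, at 13.3 CPM in Alox5-/- libraries and 14.0 CPM in WT libraries, was the lowest in Alox5-/-, and Atp6v0a1, at 15.6 CPM in Alox5-/- libraries and 10.7 CPM in WT libraries, was the lowest in WT.

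Beyond the 53 genes, a further 101 genes of the lysosome were looked at, of which 85 passed the filter. Of these 30 (35.3%) were called higher, 23 (27.1%) lower and 32 were not called; their median log2 fold change was 0.03. The share called lower is close to the 27.0% of all tested genes. Other lysosomal hydrolases were called higher in 11 of 23 cases and lower in 2, of which 1 lost its call under 4 alternatives and was not tested under the stricter filter. Scpep1, a serine carboxypeptidase, was at 147 ± 1.8 CPM in Alox5-/- libraries and 98.6 ± 0.477 CPM in WT libraries, and Hgsnat, an acetyltransferase of heparan sulfate breakdown, and Galc, the galactosylceramidase, rose by 0.43 and 0.45, while Hyal2, a hyaluronidase, fell by 0.41. Other membrane proteins and transporters were called higher in 9 of 19 cases and lower in 3. Laptm4b rose by 0.78, Slc38a9, the arginine sensor of mTORC1, by 0.53 and Cd68, a glycoprotein of phagocyte lysosomes, by 0.47, and Tpcn1, an ion channel, Laptm5 and the amino acid carrier Slc36a1 fell by 0.26, 0.17 and 0.13, with the call of Slc36a1 lost in 5 of 15 alternatives. Of other V-ATPase subunits and assembly factors 4 of 12 (33.3%) were called higher and 3 (25.0%) lower, near the shares of all tested genes. Dmxl2 and Wdr7, which are partners in a complex that joins V1 to V0, rose by 0.25 each and the assembly factor Tmem199 by 0.17, whereas its partner Ccdc115 fell by 0.28.

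Genes that send hydrolases to the lysosome were mostly lower, with 8 of 12 called lower and 1 higher. Of all tested genes 27.0% were called lower, and of those at a mean of 100 CPM or more 44.8%. Gnptab, which makes the mannose 6-phosphate tag, was at 159 ± 4.91 CPM in Alox5-/- libraries and 200 ± 1.63 CPM in WT libraries, a log2 fold change of -0.33, and Nagpa, which uncovers the tag, and Gga3, an adaptor that sorts its receptors, fell by 0.27 and 0.32. Cln8, an export receptor of the endoplasmic reticulum for lysosomal enzymes, was the exception at 42.9 ± 2.44 CPM in Alox5-/- libraries and 22.7 ± 1.38 CPM in WT libraries (log2 fold change 0.92; edgeR adjusted p = 7.13e-09). Of 14 tested genes among Tfec and the mTORC1 and Ragulator genes that act on TFEB and TFE3, 6 were called lower and 2 higher. These are 42.9% lower and 14.3% higher, beside 27.0% and 26.8% of all tested genes. The share called in either direction, 57.1%, was near the 53.8% of all tested genes. Lamtor1 and Lamtor3 of Ragulator were at log2 fold changes of -0.18 each and the Rag GTPases Rraga and Rragb at 0.19 and 0.43. Of 5 cathepsin inhibitors, 3 were called higher and 1 lower. Serpinb6a, a serpin that inhibits cathepsin G, was at 23.8 ± 0.73 CPM in Alox5-/- libraries and 6.96 ± 0.437 CPM in WT libraries (log2 fold change 1.77; edgeR adjusted p = 3.99e-11), the cystatins Cstb and Cst7 rose by 0.16 and 0.19, and Serpinb1a, an inhibitor of neutrophil serine proteases, fell by 0.45.

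**Figure D4:**
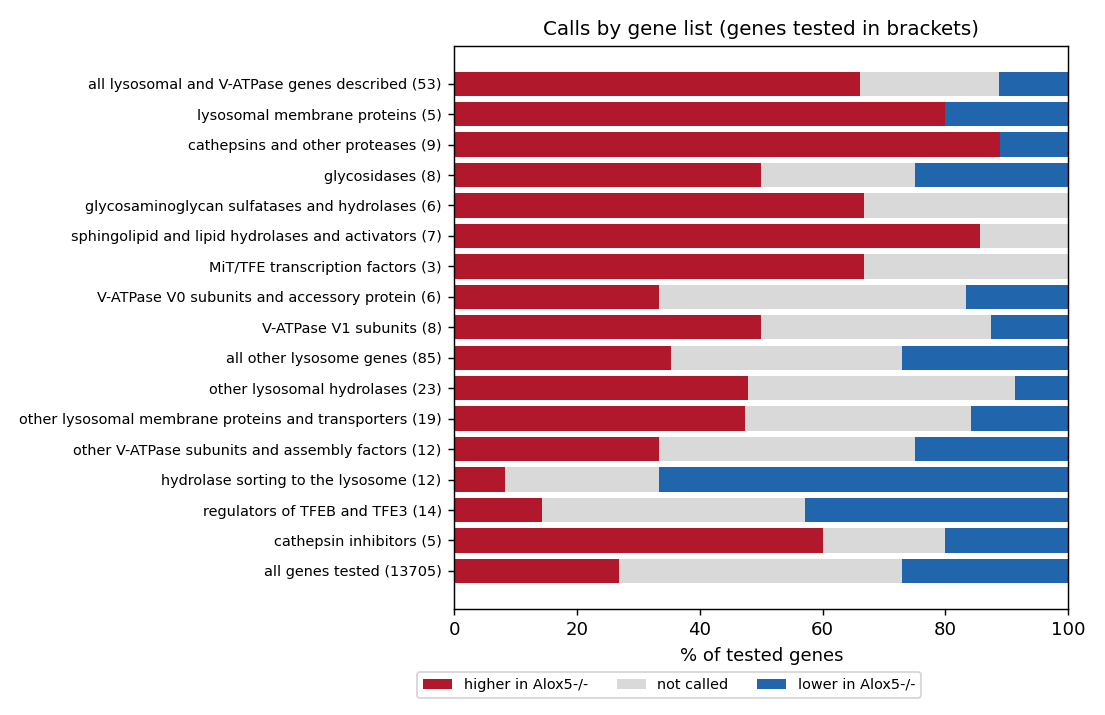
Share of tested genes called higher in Alox5-/- (red), not called (grey) and called lower (blue) in each list, with the number of tested genes in brackets and all 13705 genes at the bottom. The protease, membrane protein and lipid hydrolase lists are mostly red, and the list for sorting to the lysosome is mostly blue.

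Some of the 53 genes share sequence with neighbours or copies. For 12 of them at least 10% of the stretches of 50 bases in the longest coding transcript are also found, on either strand, in annotated transcripts of other genes. Of these 12 genes, 8 were called higher and 1 lower, and of the other 41, 27 were called higher and 5 lower. The share was 57.8% for Arsb, 20.0% for Sgsh, with transcripts of Card14, 36.6% for Ctsd, which overlaps the gene model Gm49369 on its own strand, 28.1% for Ctsl, which overlaps an antisense transcript, 32.5% for Atp6v0c and 19.2% for Atp6v1g1, which have processed copies elsewhere. The values of these genes may be affected, and by how much was not tested. The levels of the partners differ. Card14 was at 0.0552 CPM in Alox5-/- libraries and 0.0399 CPM in WT libraries. Apobr, which overlaps Cln3 on the other strand, was at 107 CPM in Alox5-/- libraries and 109 CPM in WT libraries. Fdft1, which overlaps Ctsb on the other strand, was at 74.4 CPM in Alox5-/- libraries and 84.8 CPM in WT libraries. Without a stated strand setting, reads of Arsa and its antisense partner C230037L18Rik, called higher as well at 12.1 CPM in Alox5-/- libraries and 6.36 CPM in WT libraries, cannot be told apart.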

How the data were processed

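Poly-A RNA of sorted cells was made into cDNA with the SMARTer amplification kit, per the labels' protocols. The authors deposited raw read counts per gene. The submitters' processing notes name HTSeq, DESeq2 and the build mm10. The sources used here do not give the aligner, tool versions, annotation release or strandedness. Summary rows, 5 in number, name no gene and were left out; they held reads aligned to several places (24.4 to 24.8% of all reads), reads outside genes (9.10 to 10.2%), ambiguous reads (0.523 to 0.547%), unaligned reads (4.57 to 5.78%) and reads of low quality (0%).

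Counts were tested in R 4.3.3 with edgeR 4.0.16 (TMM scaling, default expression filter, quasi-likelihood F-test between the genotypes, without covariates) over 13705 genes, with Benjamini-Hochberg adjustment and a threshold of 0.05. SE is the size of the coefficient over the root of F. A count of 0 allows up to 3 counts, 0.0786 to 0.103 CPM, for counting error only. Exon lengths and positions came from GENCODE vM21 (the same build), promoters from RefSeq (GRCm38.p6). A gene's exon length joins the exons of all its annotated isoforms, so comparisons between genes per kilobase depend on the annotation.

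The genes and lists were chosen with earlier results of these data known, so no test was made over a list. Values per library are given for the MiT/TFE factors, called genes changed at least 1.5-fold and, per role, the gene of highest mean CPM and the called gene of smallest p in each direction; of the other lists, up to 3 called genes per direction with a mean of at least 5 CPM. Genes outside this rule were named after their values were seen. Alternatives were DESeq2 1.42.0, limma-voom (limma 3.58.1), other scalings and filters, a robust fit, a replicate block and each replicate left out.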

Additional observations from a re-analysis of the deposited data

How the results depend on the processing

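The counts of called genes over all genes, over the 53 genes and over the other lysosome genes as a whole stayed within 1.5 times of the values reported under all 15 alternatives. Counts in single lists did not always do so. With 1 library left out the V-ATPase had 3 to 6 genes called higher and 2 to 3 lower, V1 had 2 to 4 higher and the glycosaminoglycan enzymes 2 to 4 higher. Glycosidases called lower numbered 1 to 2 and membrane proteins called lower 0 to 1 over all alternatives, and of the genes with a promoter E-box 1 to 2 were called lower. Of the 53 genes, 32 to 39 were called higher and 4 to 6 lower under other tools, scalings, filters, the robust fit and the block, and 29 to 34 higher and 4 to 6 lower with 1 replicate left out (34 and 4 without Alox5-/- replicate 2). Of the other lysosome genes, 29 to 34 were called higher and 20 to 23 lower, and of all genes 6219 to 7622 were called. With the replicate number as a block, 38 of the 53 genes and 7029 genes in all were called. Same-numbered libraries deviated together no more than others (correlations of -0.08 to 0.02 for equal numbers and -0.06 to 0.07 for unequal ones). Such deviations from means of 3 libraries cannot show whether same-numbered samples were prepared together, and the labels do not say. For 39 of the 53 genes each alternative gave the same call. The direction of genes without a call was not compared between alternatives. Calls were lost under at least 1 alternative for 9 genes (Asah1, Atp6v0d1, Atp6v1a, Atp6v1c1, Cln3, Galns, Lamp1, Man2b1 and Sgsh), all with a log2 fold change of at most 0.15 in size, and gained for 5 (Atp6v1b2, Atp6v1h, Manba, Neu1 and Ppt1); the cause was not tested. No called gene among the 53 changed direction. Alox5 had log2 fold changes of -0.72 to -0.66. With 3 libraries per group, the test has few samples to estimate the spread, and changes under 1.2-fold are where calls were unstable.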
